A study of Thermochaetoides thermophila with 9 samples.

Results

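Chaetomium thermophilum, a thermophilic filamentous fungus, lives on plant material. According to the sample labels, wild-type mycelium was first grown in complete medium (CCM) at 50 °C and then depleted of sugar for 48 h, here in SPY, a medium of salts, peptone and yeast extract without sugar. The glucose cultures then received 1% (w/v) D-glucose for 6 h, whereas the reference cultures stayed without sugar for the same 6 h. All cultures share the wild-type genotype and the preceding depletion, and SPY supplied amino acids and peptides in both groups. Polyadenylated RNA of 3 glucose and 3 reference cultures was sequenced, 1 library per biological replicate, and 3 xylose libraries of the same series entered the filter on low counts, the scaling and the estimate of the spread, and a few values are set beside them. With the glucose and reference libraries alone, 6858 genes passed the filter. The members described here are the 6904 genes that passed a filter on low read counts, of 7785 genes listed. The other 881 genes were not tested, and 483 of the listed genes had a count of 0 in all 9 libraries.

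Fungi that are short of sugar live on amino acids, lipids and their own stores. They then make sugars by gluconeogenesis, which runs part of glycolysis backwards, and feed it through the glyoxylate cycle, which lets carbon from fatty acids, ethanol and acetate enter without being lost as CO2. Glucose is known to repress many of these genes in fungi through zinc-finger repressors of the Mig1/CreA family, a regulation called carbon catabolite repression, and to act through cAMP and protein kinase A. Growth on sugar also raises the demand for ribosomes and mitochondrial respiration in many fungi. The names used below come from supplementary sheets of the study, which gave 2058 of the 6904 genes (29.8%) a functional name.

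Between 38806913 and 48597872 reads were counted on genes in the glucose libraries and between 43158740 and 48802019 in the reference libraries, so that 3 reads corresponded to 0.0561 to 0.109 CPM in glucose and 0.0582 to 0.0716 CPM in the reference. CPM are read counts divided by the size of the library, corrected by the TMM factors of edgeR. Reads on rRNA genes took 7.36%, 11.7% and 22.9% of the glucose libraries and 17.3%, 15.7% and 32% of the reference libraries. The ranked expression of the glucose libraries correlated with Spearman coefficients of 0.969 to 0.992 across genes. In the reference, replicates 1 and 3 correlated at 0.978, but replicate 2 reached only 0.935 with replicate 1 and 0.927 with replicate 3. Reference replicate 2 therefore stands apart, and it lay towards glucose for many genes. It was the highest reference library for 66.1% of the genes that were higher in glucose, against 40.2% of all genes tested, and the lowest reference library for 63.2% of the genes that were lower in glucose, against 41.8% of all genes tested. What set it apart was not tested, and the counts and changes that depend most on it are given below with and without it.

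After 6 h of glucose, 3416 of the 6904 genes tested (49.5%) differed from the reference at an adjusted p-value under 0.05 in edgeR's quasi-likelihood test, which is the test behind all calls and adjusted p-values given here. Of these, 1659 genes (24.0% of those tested) were higher in glucose and 1757 (25.4%) were lower. The median log2-fold change was 1.54 among the higher and -1.50 among the lower genes, with a median standard error of 0.33. The distribution was wide. At least 4-fold changes were found for 476 higher and 521 lower genes, and changes of at least 32-fold for 18 higher and 33 lower genes. Of the called genes, 3302 had 3 glucose libraries that did not overlap with the 3 reference libraries, and over all genes tested 60.2% did not overlap. A further 256 genes had a fitted change of at least 2-fold without passing the test.

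**Figure D1:**
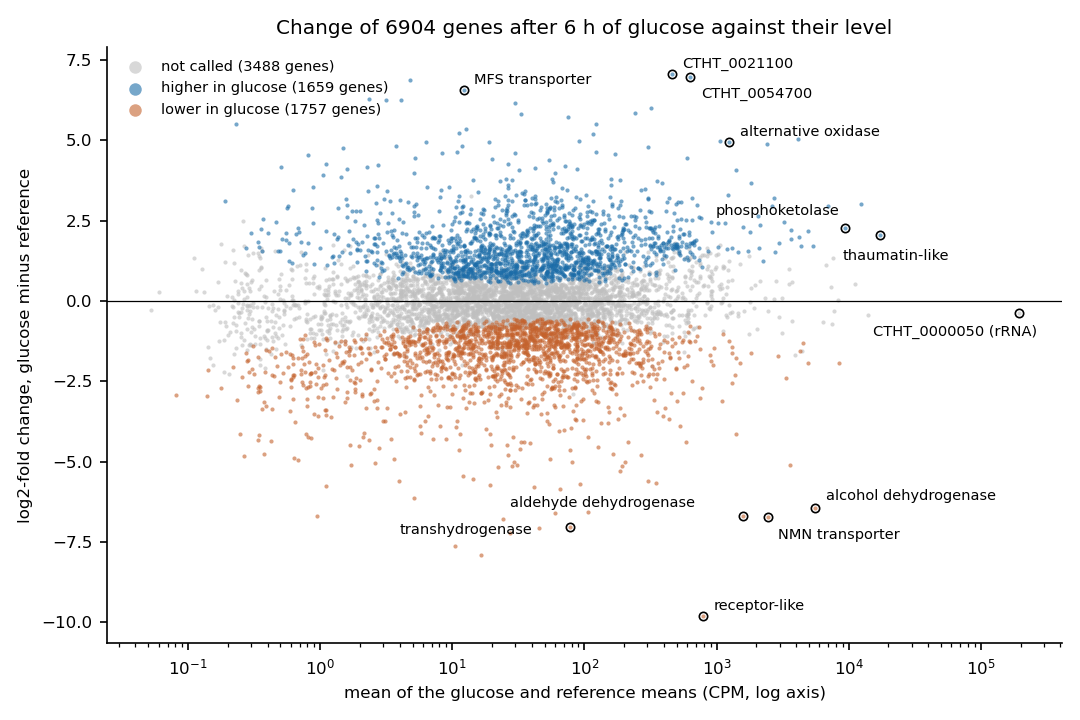
Each point is 1 of the 6904 genes tested, with the mean of its glucose and reference means in CPM on a log axis and its log2-fold change of glucose minus reference on the y axis. Blue points are the 1659 genes called higher in glucose, orange points the 1757 called lower and grey points those not called, and a few genes are labelled.

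The number of calls and their balance both depended on the processing. With total counts as the only scaling, 2852 genes were called, 46% of them higher. In the fit used here higher genes made up 48.6% of the calls, but they made up 58.9% without the filter on low counts, 58.7% with a minimum of 10 counts in every library, 58.7% when libraries were scaled to xylose replicate 3 and 59.8% without glucose replicate 1, where 1146 genes were lower. The median of all genes was -0.05 on the log2 scale and moved between -0.13 and 0.16 over the scalings and filters, so that changes of this size around 0 carry no direction. No gene was called in opposite directions in any of the alternative fits.

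The source of a name also matters for the counts below. Of 1999 genes named on the sheet that the study ordered by expression level in glucose, 52.2% were called, 42.3% higher and 9.95% lower. Another 1990 genes were named only on the study's lists of changed genes, and there 76.3% were lower and 3.32% higher, a direction that the choice of those lists can fix. The shared direction of such genes is therefore not independent evidence for a list. The first set was named by level in glucose, which can favour higher genes, so its direction is not independent evidence either. The median log2-fold change was 0.70 in the first set and -1.29 in the second. Some genes in the first set have a functional annotation only from the lists of changed genes. Such annotations also decided which gene list a gene joined. Of a further 22 genes named only on small sheets, 9 were higher and 0 lower. These sheets include the study's genes that differed most between glucose and xylose, so their direction is not independent evidence either.

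**Figure D2:**
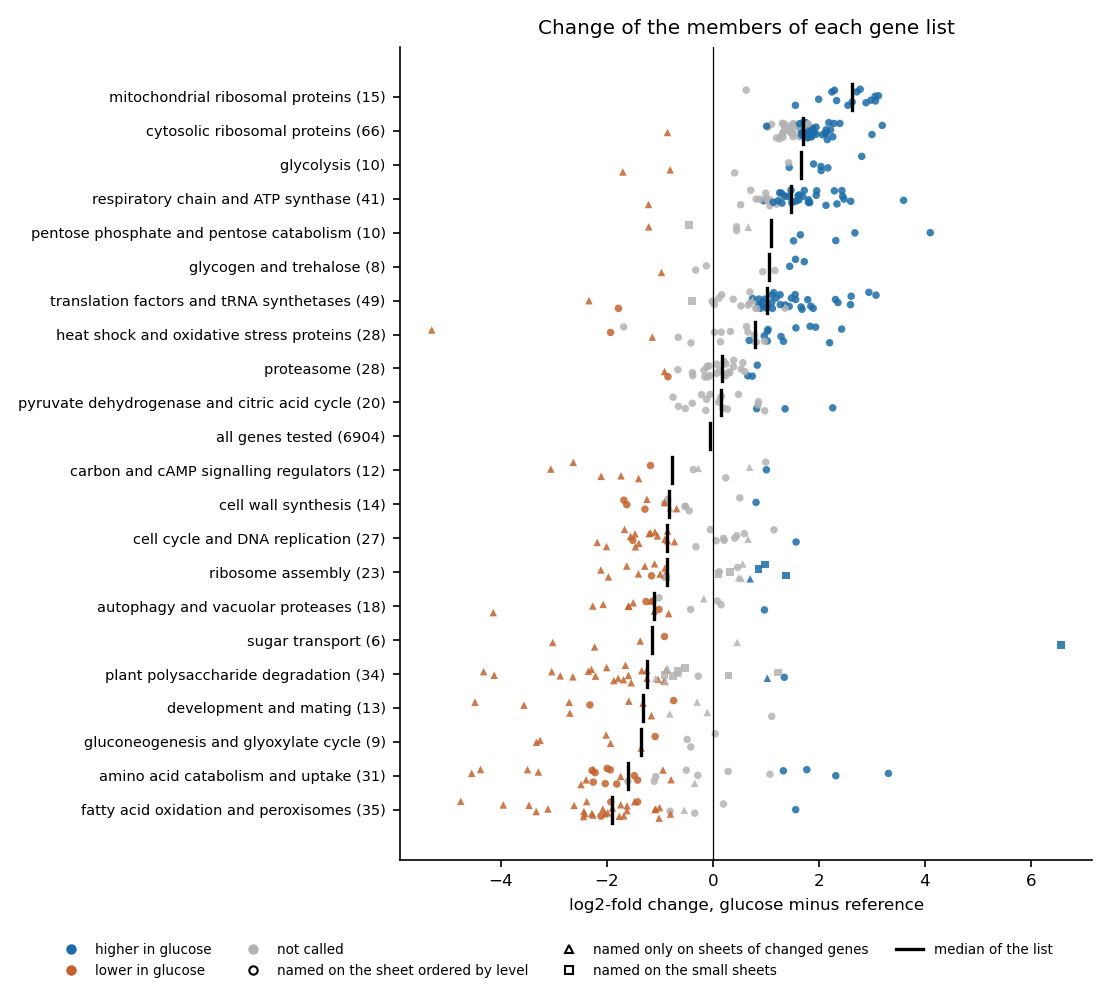
The x axis gives the log2-fold change of glucose minus reference for each member of 21 lists of genes, with the number of members in parentheses and the median as a black bar. Triangles mark genes named only on the study's lists of changed genes, and the mitochondrial ribosomal proteins (median 2.63) and the fatty acid and peroxisome genes (median -1.89) stand at the ends.

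The glyoxylate cycle was lower after glucose. Isocitrate lyase and malate synthase are its 2 defining enzymes. Isocitrate lyase CTHT_0062350 had 9, 9.29 and 21.1 CPM in glucose, against 147, 94.7 and 134 CPM in the reference. Malate synthase CTHT_0012510 had 62.6, 72.0 and 89.1 CPM in glucose, against 676, 699 and 865 CPM in the reference. All 3 glucose libraries lay far below all 3 reference libraries for both enzymes. The log2-fold changes were -3.26 ± 0.57 (SE, adjusted p = 0.00105) and -3.32 ± 0.30 (adjusted p = 2.88e-05 in edgeR). A second isocitrate lyase, CTHT_0010800, had overlapping libraries and was not called (log2-fold change -0.42, adjusted p = 0.273).

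Of 9 genes of gluconeogenesis and the glyoxylate cycle, 6 were lower and 0 higher, with a median log2-fold change of -1.35. Of the 4 on the sheet ordered by level, 1 was lower (25%), beside 9.95% of all genes on it. Among these 4, CTHT_0017070 joined the list only by an annotation from the lists of changed genes. The other 5 were all lower, beside 76.3% of all genes named only on those lists. Without glucose replicate 1 the list had 3 lower genes. CTHT_0021790 is named as a putative mitochondrial succinate-fumarate transporter, which in yeast exchanges the succinate of the glyoxylate cycle for fumarate. Its other annotation is a mitochondrial citrate transporter, so its substrate is not settled here. It had 5.33, 5.01 and 7.79 CPM in glucose, against 22.4, 31.3 and 19.3 CPM in the reference (log2-fold change -2.01, adjusted p = 0.00789). Malic enzyme CTHT_0062150, which makes pyruvate from malate, changed by -1.93 (adjusted p = 0.00248) and acetyl-CoA synthetase CTHT_0004420, which activates acetate, by -1.35 (adjusted p = 0.00871). The calls for the transporter and for acetyl-CoA synthetase were lost without glucose replicate 1 (log2-fold changes -1.72 and -1.11, adjusted p = 0.0519 and 0.0645).

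The genes particular to gluconeogenesis gave a call that depended on every library and otherwise no call. Fructose-1,6-bisphosphatase CTHT_0042460 had 420, 569 and 381 CPM in glucose, against 817, 1174 and 917 CPM in the reference. The libraries did not overlap, but the log2-fold change of -1.09 ± 0.39 passed the test only narrowly (adjusted p = 0.0391), and the call was lost without any 1 of the 6 libraries (log2-fold changes -1.27 to -0.81, adjusted p = 0.0537 to 0.180). It was also lost without the filter on low counts, with a minimum of 10 counts in every library and when scaled to any xylose library. Phosphoenolpyruvate carboxykinase CTHT_0044390, which makes phosphoenolpyruvate from oxaloacetate, had 2503, 3111 and 2630 CPM in glucose, against 1955, 4591 and 1441 CPM in the reference. Its glucose libraries lay inside the range of the reference libraries, and it was not called (log2-fold change 0.05 ± 0.48, adjusted p = 0.943). A second gene annotated as this enzyme, CTHT_0017070, had 105, 156 and 54.9 CPM in glucose, against 173, 75.5 and 193 CPM in the reference. It was not called either (log2-fold change -0.48, adjusted p = 0.348).

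CTHT_0042460 and CTHT_0044390 had far lower levels in xylose, where 50.8% of all genes tested differed from glucose. Phosphoenolpyruvate carboxykinase averaged 2748 ± 321 CPM in glucose and 74 ± 12.4 CPM in xylose (SD, n = 3 each), and in edgeR the difference of xylose minus glucose in CTHT_0044390 was -5.21 on the log2 scale (adjusted p = 7.42e-05). Fructose-1,6-bisphosphatase CTHT_0042460 averaged 457 ± 99.1 CPM in glucose and 28.8 ± 12.9 CPM in xylose, a difference of -3.99 (edgeR, adjusted p = 7.32e-05). Both sugars were given at 1% for 6 h.

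**Figure D3:**
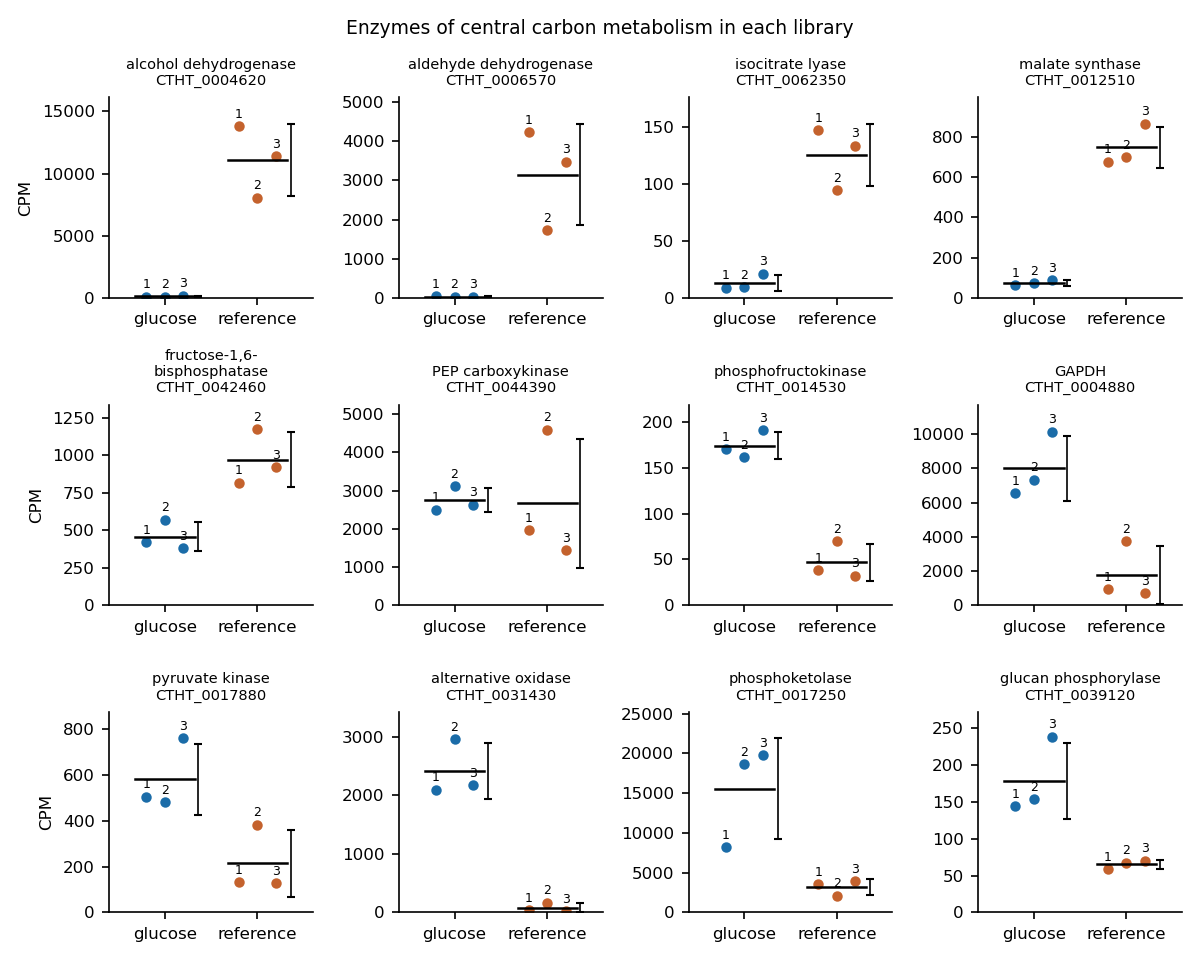
Each panel shows the CPM of 1 gene on a linear axis from 0, with the glucose libraries on the left and the reference libraries on the right, numbered by replicate. Horizontal lines are means and error bars SD over 3 libraries, and the 2 groups are separate in every panel except that of PEP carboxykinase.

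Among the 10 largest decreases with a functional name were an alcohol and an aldehyde dehydrogenase. The alcohol dehydrogenase CTHT_0004620, annotated as the propanol-preferring type, had 104, 99.4 and 177 CPM in glucose, against 13810, 8055 and 11373 CPM in the reference. By CPM per kb of gene length it ranked 6 in the reference and 889 in glucose. A mitochondrial aldehyde dehydrogenase, CTHT_0006570, had 37.6, 28.7 and 25.6 CPM in glucose, against 4234, 1725 and 3480 CPM in the reference. Alcohol and aldehyde dehydrogenases together turn ethanol into acetate, the substrate of acetyl-CoA synthetase. Their log2-fold changes were -6.45 ± 0.97 (adjusted p = 0.000442) and -6.68 ± 0.62 (adjusted p = 3.30e-05).

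A mitochondrial nicotinamide nucleotide transhydrogenase, CTHT_0027680, which transfers hydride between NADH and NADP+, had 1.38, 0.864 and 1.27 CPM in glucose, against 213, 63.9 and 189 CPM in the reference (log2-fold change -7.05 ± 0.52, adjusted p = 1.12e-05). A putative nicotinamide mononucleotide transporter, CTHT_0050380, had 54.5, 36.9 and 47.9 CPM in glucose, against 8214, 2670 and 3661 CPM in the reference (log2-fold change -6.71). All reference libraries lay far above all glucose libraries for both. The gene with the largest decrease of all, the receptor-like CTHT_0067930, had 1.52, 1.05 and 2.77 CPM in glucose, against 2703, 767 and 1276 CPM in the reference (log2-fold change -9.81 ± 0.71, adjusted p = 1.12e-05). All of these calls held when any 1 library was left out.

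The second largest decrease with a functional name was that of a D-3-phosphoglycerate dehydrogenase, CTHT_0043210 (log2-fold change -7.22, adjusted p = 0.00111). The enzyme, which starts serine synthesis from a glycolytic intermediate, had 9, 14 and 19 reads in the glucose libraries, that is 0.168, 0.295 and 0.691 CPM, against 102, 1.38 and 58.5 CPM in the reference. Its second reference library was close to glucose, and the other 2 were not. The peptide transporter CTHT_0062400 changed by -5.60 (adjusted p = 0.000764), the catalase-peroxidase CTHT_0071960, which degrades hydrogen peroxide, by -5.30 (adjusted p = 1.24e-05) and a xanthine dehydrogenase of purine breakdown, CTHT_0001520, by -5.12 (adjusted p = 0.000108). The uncharacterized gene CTHT_0051820, at rank 8 in the reference by CPM per kb, had 210, 230 and 164 CPM in glucose, against 11067, 2437 and 7318 CPM in the reference (log2-fold change -5.11). Among the 10 largest decreases without a functional name, CTHT_0040310 rests on reference replicate 2, with 0.355, 0.337 and 0.655 CPM in glucose, against 1.46, 140 and 1 CPM in the reference. Its log2-fold change was -6.77 with that library and -1.47 without it (adjusted p = 0.0527).

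**Figure D4:**
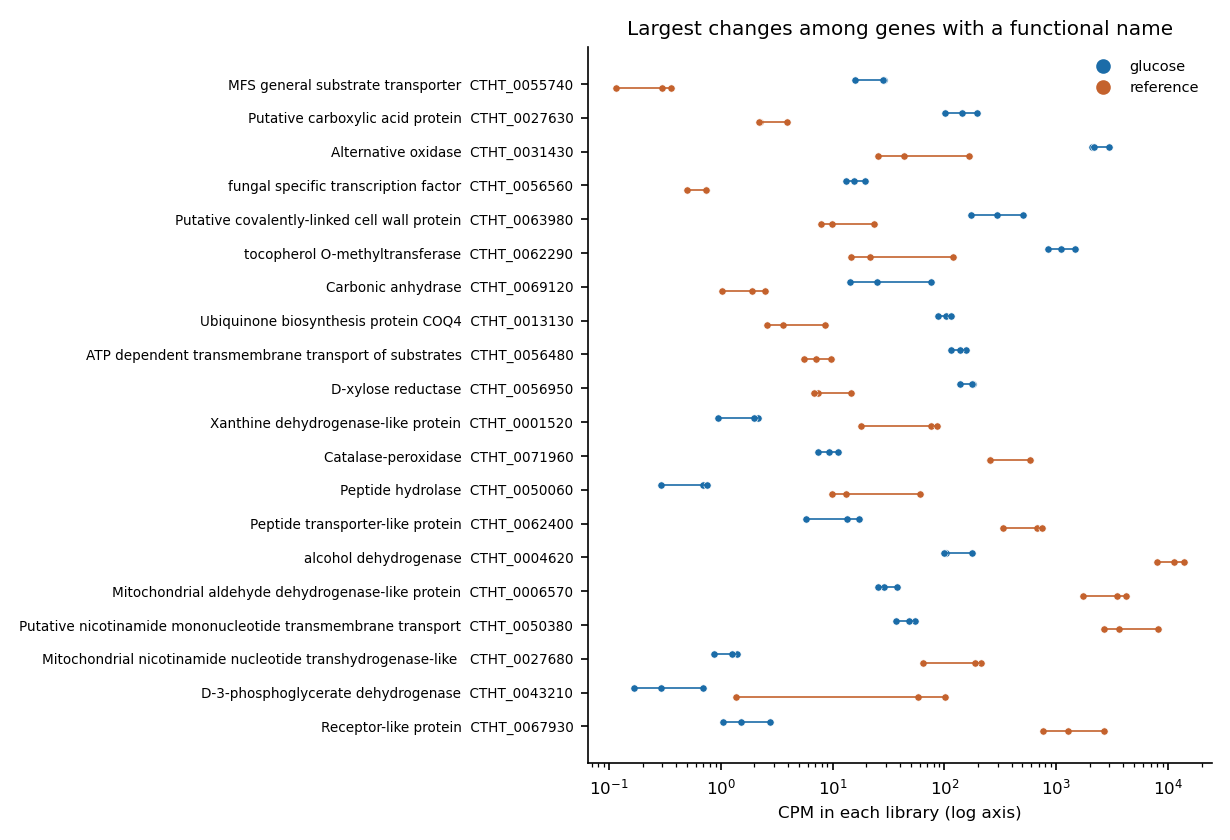
CPM in each of the 3 glucose (blue) and 3 reference (orange) libraries on a log axis, for the genes with a functional name that changed most, 10 in each direction, and whose libraries do not overlap. The receptor-like gene at the bottom has 1.05 to 2.77 CPM in glucose and 767 to 2703 CPM in the reference, and the MFS transporter at the top 16.0 to 28.8 CPM in glucose and 0.116 to 0.358 CPM in the reference. The MFS transporter was named only on the small sheets.

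Genes of fatty acid oxidation and peroxisomes were mostly named on the lists of changed genes, 28 of 35. In β-oxidation, fatty acids are activated to CoA esters, shortened in a cycle of 4 reactions and exported as acetyl units, and much of this takes place in peroxisomes in filamentous fungi. Of 35 members, 30 were lower and 1 higher, with a median log2-fold change of -1.89 beside -0.05 over all genes tested. Of the 7 members on the sheet ordered by level, 3 were lower (42.9%) and 1 higher (14.3%), beside 9.95% and 42.3% of all genes on it. Of the other 28 genes 27 were lower (96.4%), beside 76.3% of all genes named only on those lists. The summed level of the list was 1836, 1790 and 1764 CPM in glucose, against 5261, 5560 and 5640 CPM in the reference, so that neither group varied much and reference replicate 2 did not stand apart here.

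The activating enzyme CTHT_0008560, a long-chain fatty acid CoA ligase, had 29.5, 24.2 and 22.3 CPM in glucose, against 292, 188 and 360 CPM in the reference (log2-fold change -3.46, adjusted p = 0.000103). A second long-chain acyl-CoA synthetase, CTHT_0044280, had 1, 0 and 2 reads in glucose and 0.660, 0.495 and 1.03 CPM in the reference, and its fitted log2-fold change of -4.75 (adjusted p = 0.000943) depends on the prior count. The acyl-CoA dehydrogenases CTHT_0063350 and CTHT_0028640, which catalyse the first oxidation, changed by -3.95 and -3.33 (adjusted p = 0.00254 and 0.000193). Among genes chosen after their values were seen, the peroxisomal hydratase-dehydrogenase-epimerase CTHT_0039010, which carries out the middle steps, had 208, 192 and 153 CPM in glucose, against 840, 750 and 793 CPM in the reference (log2-fold change -2.11). The carnitine acetyltransferases CTHT_0005440 and CTHT_0034140, which pass acetyl units between compartments, changed by -3.11 and -2.61. The exception was the electron transfer flavoprotein alpha subunit CTHT_0034170, a mitochondrial electron carrier, at 217, 189 and 226 CPM in glucose, against 45.6, 133 and 35.5 CPM in the reference. Its log2-fold change was 1.56, and 2.39 without reference replicate 2, while the call was lost without reference replicate 1 (adjusted p = 0.0569).

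Amino acid catabolism and uptake were lower in 19 of 31 genes and higher in 4, with a median of -1.60. Among the 20 on the sheet ordered by level, 9 were lower (45%, beside 9.95% of all genes on it) and 4 higher (20%, beside 42.3%). Of the other 11 genes 10 were lower (90.9%), beside 76.3% of all genes named only on those lists. The summed level was 5415, 5671 and 6386 CPM in glucose, against 14586, 21908 and 13968 CPM in the reference. The groups did not overlap, and reference replicate 2 was the highest, that is the farthest from glucose.

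A pair of reactions around 4-aminobutyrate (GABA) moved in opposite directions. Glutamate decarboxylase CTHT_0015750, which makes GABA from glutamate, had 95.0, 224 and 240 CPM in glucose, against 10.8, 20.7 and 24.7 CPM in the reference (log2-fold change 3.31, adjusted p = 0.00114). The GABA aminotransferase CTHT_0025770, which degrades it, had 24.5, 19.1 and 14.9 CPM in glucose, against 332, 527 and 359 CPM in the reference (log2-fold change -4.38, adjusted p = 1.24e-05). The 2 glutamate dehydrogenases in the list also differed in direction. The NAD-specific enzyme CTHT_0027020, which serves glutamate breakdown in fungi, had 1679, 1795 and 2676 CPM in glucose, against 6478, 8632 and 8349 CPM in the reference (log2-fold change -1.93, adjusted p = 0.0108). The other, CTHT_0027970, named after its values were seen, had 146, 170 and 84.5 CPM in glucose, against 33.8, 14.9 and 31.6 CPM in the reference (log2-fold change 2.32, adjusted p = 0.00313). The call for the NAD-specific enzyme was lost without glucose replicate 1 or 2 (log2-fold changes -1.84 to -1.59, adjusted p = 0.0606 to 0.0676).

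An amino acid permease, CTHT_0021660, was lower at 9.19, 8.98 and 7.13 CPM in glucose, against 121, 94.7 and 69.6 CPM in the reference (log2-fold change -3.49, adjusted p = 1.67e-05). Propionyl-CoA synthetase CTHT_0051450, which activates propionate, changed by -4.55 (adjusted p = 1.12e-05). The next 5 genes, whose enzymes break down branched-chain amino acids, were picked after their values were seen and stand for no group. The branched-chain aminotransferase CTHT_0062930 had 111, 89.1 and 137 CPM in glucose, against 504, 855 and 274 CPM in the reference. The branched-chain 2-oxoacid dehydrogenase subunits CTHT_0043530 and CTHT_0009610 changed by -2.25 and -1.81, 3-methylcrotonyl-CoA carboxylase CTHT_0013320 by -2.03 and methylmalonate-semialdehyde dehydrogenase CTHT_0053600 by -2.22. For these last 4 genes reference replicate 2 was by far the highest library, and without it the changes were -1.37, -1.08, -1.32 and -1.43, all still called.

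Autophagy and vacuolar proteolysis, by which cells recycle their own protein, were lower in 12 of 18 genes and higher in 1 (median -1.12). Among the 8 on the sheet ordered by level 3 were lower (37.5%) and 1 higher (12.5%), beside 9.95% and 42.3% of all genes on it. Of the other 10 genes 9 were lower (90%), beside 76.3% of all genes named only on those lists. Without glucose replicate 1, 7 genes of the list were lower. The lipid transfer protein Atg2, CTHT_0063370, had 33, 32 and 25.2 CPM in glucose, against 145, 87.4 and 200 CPM in the reference (log2-fold change -2.26, adjusted p = 0.000240). A carboxypeptidase, CTHT_0061740, had 2.10, 3.35 and 0.728 CPM in glucose, against 13.1, 90.1 and 7.07 CPM in the reference (log2-fold change -4.14, and -2.25 without reference replicate 2). A tripeptidyl-peptidase, CTHT_0000860, and a carboxypeptidase-like gene, CTHT_0035720, changed by -2.07 and -1.59 (adjusted p = 0.00344 and 0.000279).

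Genes for the degradation of plant polysaccharides were lower in 21 of 34 and higher in 2, with a median of -1.24. All 21 lower genes were among the 26 named only on the lists of changed genes (80.8%, near the 76.3% of all genes so named). Of the 8 others 1 was higher and 0 lower. Without glucose replicate 1 there were 13 lower genes. Most of these genes had few reads. Cellobiose dehydrogenase CTHT_0022390, which oxidises the disaccharide from cellulose, had 0.393, 0.506 and 1.06 CPM in glucose, against 7.03, 22.5 and 3.53 CPM in the reference (log2-fold change -4.12, adjusted p = 0.000968). An acetylxylan esterase with a cellulose-binding annotation, CTHT_0019650, had 15, 9 and 5 reads in glucose, that is 0.281, 0.190 and 0.182 CPM, against 2.97, 8.37 and 2.05 CPM in the reference (log2-fold change -4.32, adjusted p = 0.000333). A pectinesterase, CTHT_0037600, changed by -3.04 and a cellulose-binding protein, CTHT_0003950, by -2.87 (adjusted p = 0.000635 and 0.00157). The xylosidase-like CTHT_0011440 was not called at 4.77, 3.67 and 4.29 CPM in glucose, against 6.15, 11.0 and 4.20 CPM in the reference. Its log2-fold change was -0.75 (adjusted p = 0.0783), and it was called only without reference replicate 3 (log2-fold change -1.01, adjusted p = 0.0226). The β-xylosidase CTHT_0064690 was not called (-0.52, adjusted p = 0.167).

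The genes of pentose use divided. D-xylulose reductase, also called xylitol dehydrogenase, CTHT_0073860, had 15.0, 13.2 and 13.9 CPM in glucose, against 181, 200 and 167 CPM in the reference (log2-fold change -3.70, adjusted p = 2.37e-05). D-xylose reductase CTHT_0056950, which acts just before it, had 137, 181 and 177 CPM in glucose, against 7.41, 14.6 and 6.83 CPM in the reference (log2-fold change 4.10, adjusted p = 7.53e-05). Xylulose kinase CTHT_0022560, the next step, overlapped between the groups and was not called (-0.45, adjusted p = 0.247). The reductase and the dehydrogenase thus moved apart under glucose, although both were far higher in xylose, at 1638 and 482 CPM on average.

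Sugar transporters were lower in 4 of 6 genes and higher in 1, with 2 lower without glucose replicate 1. Of the 4 named only on the lists of changed genes 3 were lower (75%), near the 76.3% of all genes so named. The putative high-affinity glucose transporter CTHT_0054950 had 20.9, 16.8 and 14.6 CPM in glucose, against 95.1, 68.0 and 81.8 CPM in the reference (log2-fold change -2.23, adjusted p = 0.000123). A second, CTHT_0021010, had 9, 3 and 14 reads in glucose and changed by -3.02 (adjusted p = 0.00867), a call lost without glucose replicate 1 (log2-fold change -2.58, adjusted p = 0.0533). A hexose transport-related gene, CTHT_0047960, changed by -1.37 (adjusted p = 0.00722). The carbohydrate transporter CTHT_0027350 changed by -0.92 (adjusted p = 0.0276), with the call lost without glucose replicate 1, glucose replicate 2 or reference replicate 2 (log2-fold changes -0.87 to -0.59, adjusted p = 0.0588 to 0.193). The exception was CTHT_0055740, a member of the major facilitator superfamily (MFS) whose substrate is not known here, at 16.0, 28.8 and 28.1 CPM in glucose, against 6, 14 and 15 reads or 0.116, 0.301 and 0.358 CPM in the reference (log2-fold change 6.56, adjusted p = 1.12e-05). It was named only on the small sheets, which include genes chosen for a large difference between glucose and xylose.

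Several regulators of carbon use changed in RNA level. The gene annotated as the xylanolytic activator XlnR, CTHT_0038840, a zinc-cluster factor that turns on xylanase and xylose genes in filamentous fungi, had 25.4, 22.6 and 14.5 CPM in glucose, against 186, 128 and 205 CPM in the reference (log2-fold change -3.05, adjusted p = 0.000158). Of the 12 regulators, 6 were lower and 1 higher. Of the 7 named only on the lists of changed genes 5 were lower (71.4%), near the 76.3% of all genes so named. In 1 lower gene, the pyruvate dehydrogenase phosphatase CTHT_0020390, the libraries overlapped (log2-fold change -1.73, adjusted p = 0.0196). Adenylate cyclase CTHT_0056850, which makes cAMP, had 29.1, 32.2 and 43.2 CPM in glucose, against 136, 228 and 284 CPM in the reference (log2-fold change -2.63, adjusted p = 0.000129). The G protein alpha subunits CTHT_0039140 and CTHT_0022920 changed by -2.11 and -1.17 (adjusted p = 0.000192 and 0.00949) and a protein kinase A gene, CTHT_0007920, by -1.40 (adjusted p = 0.000983). Not every signalling gene of the list was lower. The G protein-coupled receptor gene CTHT_0035600 had 35.5, 74.7 and 171 CPM in glucose, against 40.8, 82.5 and 50.3 CPM in the reference. Its libraries overlapped, and it was not called (log2-fold change 0.69, adjusted p = 0.262). These are RNA levels and do not measure the activity of the pathway.

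The Mig1-like repressor CTHT_0038780, a zinc-finger protein of the family behind catabolite repression, was the 1 regulator that was higher. It had 342, 355 and 320 CPM in glucose, against 251, 93.4 and 161 CPM in the reference (log2-fold change 1.01, adjusted p = 0.0263). The groups did not overlap, but the call was lost without glucose replicate 2 or reference replicate 3 (log2-fold change 0.98 for both, adjusted p = 0.0704 and 0.0706). Among the 5 regulators on the sheet ordered by level, 1 was higher and 1 lower (20% each), beside 42.3% and 9.95% of all genes on it. The lower one, CTHT_0022920, joined the list only by an annotation from the lists of changed genes.

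Glycolytic genes were higher in 6 of 10 and lower in 2, with a median of 1.67. The 8 members on the sheet ordered by level gave 6 higher (75%, beside 42.3% of all genes on it) and 0 lower. The summed level was 10527, 11255 and 16003 CPM in glucose, against 2225, 7253 and 1847 CPM in the reference, where replicate 2 stood well above the other 2. Phosphofructokinase CTHT_0014530, the main control point of glycolysis, had 170, 162 and 191 CPM in glucose, against 38.2, 69.5 and 32.2 CPM in the reference (log2-fold change 1.90 ± 0.32, adjusted p = 0.000891). Triosephosphate isomerase CTHT_0025650 changed by 2.81 (adjusted p = 0.00707), glucose-6-phosphate isomerase CTHT_0035120 by 2.04 (adjusted p = 0.00865) and a phosphoglycerate mutase, CTHT_0016420, by 2.04 (adjusted p = 0.00131). Without reference replicate 2 the changes of the 2 isomerases were 4.36 and 3.13.

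Glyceraldehyde-3-phosphate dehydrogenase CTHT_0004880, among the most abundant metabolic mRNAs, had 6545, 7336 and 10157 CPM in glucose, against 919, 3733 and 687 CPM in the reference. It changed by 2.17 ± 0.75 on the log2 scale (adjusted p = 0.032). It was 3.33 without reference replicate 2, and the call was lost without glucose replicate 2 or 3 or reference replicate 1 or 3 (log2-fold changes 1.78 to 2.24, adjusted p = 0.0650 to 0.114). Pyruvate kinase CTHT_0017880, the last step, changed by 1.44 (adjusted p = 0.0303) and by 2.18 without reference replicate 2, and its call was lost without the same 4 libraries (log2-fold changes 1.18 to 1.57, adjusted p = 0.0517 to 0.110). Phosphoglycerate kinase CTHT_0037370 was not called, with 1004, 1197 and 2153 CPM in glucose, against 250, 1139 and 226 CPM in the reference. Its change of 1.43 (adjusted p = 0.0816) was 2.62 without reference replicate 2 (adjusted p = 0.000615). Fructose-bisphosphate aldolase CTHT_0050360 was also called only without that library (log2-fold changes 0.41 with it and 0.90 without it, adjusted p = 0.461 and 0.0417).

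The gene named as hexokinase, the first enzyme of the pathway, went the other way. Most genes tested had no functional name, so other genes for this step could not be assessed. Hexokinase CTHT_0057190, which phosphorylates glucose on entry, had 15.0, 12.9 and 14.7 CPM in glucose, against 21.7, 31.4 and 21.3 CPM in the reference. The change was small (log2-fold change -0.80, adjusted p = 0.0326), and the call was lost without any glucose replicate and without reference replicate 2 (log2-fold changes -0.82 to -0.58, adjusted p = 0.0672 to 0.164). It was also lost with total counts alone, without the filter on low counts, with a minimum of 10 counts in every library and when scaled to any xylose library. The second lower member, the phosphoglycerate mutase-like CTHT_0015180, changed by -1.70 at 0.873 to 4.10 CPM in glucose (adjusted p = 0.0135), a call lost without reference replicate 1 (log2-fold change -1.38, adjusted p = 0.0532). Both were named only on the lists of changed genes.

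In the pentose phosphate pathway, which branches from glycolysis and yields NADPH and ribose, transketolase CTHT_0066780 had 420, 368 and 419 CPM in glucose, against 61.7, 131 and 49.1 CPM in the reference (log2-fold change 2.32, adjusted p = 0.00197). Ribulose-phosphate 3-epimerase CTHT_0003090 changed by 2.68 (adjusted p = 0.00805; 4.30 without reference replicate 2). Transaldolase CTHT_0013420 changed by 1.65 (adjusted p = 0.0187), a call lost without glucose replicate 3 or reference replicate 1 or 3 (log2-fold changes 1.44 to 1.46, adjusted p = 0.0575 to 0.0767). Of the 10 genes of this pathway and of pentose use, 5 were higher and 1 lower. The 5 higher ones were among the 7 named on the sheet ordered by level (71.4%, beside 42.3% of all genes so named). A phosphoketolase, CTHT_0017250, which splits pentose and hexose phosphates into acetyl phosphate, had 8214, 18679 and 19766 CPM in glucose, against 3566, 2120 and 3926 CPM in the reference (log2-fold change 2.28 ± 0.83, adjusted p = 0.0404). The groups did not overlap, but glucose replicate 1 lay well below the other 2 glucose libraries. The call was lost when any library other than glucose replicate 1 was left out (log2-fold changes 2.07 to 2.45, adjusted p = 0.0645 to 0.0947).

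Storage carbohydrate genes were higher in 3 of 8 and lower in 1. Of the 7 on the sheet ordered by level 3 were higher (42.9%), near the 42.3% of all genes on it. Glycogen synthase CTHT_0028430 had 298, 339 and 297 CPM in glucose, against 54.2, 169 and 93.8 CPM in the reference (log2-fold change 1.56, adjusted p = 0.00756), and glucan phosphorylase CTHT_0039120, which breaks glycogen down, had 145, 154 and 238 CPM in glucose, against 58.8, 67.4 and 70.2 CPM in the reference (log2-fold change 1.45, adjusted p = 0.00288). Synthesis and breakdown genes of glycogen thus rose together. Trehalose-6-phosphate synthase CTHT_0019220 changed by 1.73 (adjusted p = 0.0118). Trehalase CTHT_0056580, which hydrolyses trehalose, changed by -0.98 (adjusted p = 0.0484), a call lost without every library except reference replicate 2 (log2-fold changes -1.07 to -0.76, adjusted p = 0.0866 to 0.180).

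The pyruvate dehydrogenase complex and the citric acid cycle had few calls. Of 20 genes, 3 were higher and 0 lower, with a median of 0.15, and without reference replicate 2 there were 8 higher genes. All 20 were on the sheet ordered by level, where 42.3% of genes were higher. Malate dehydrogenase CTHT_0032190 had 464, 399 and 429 CPM in glucose, against 80.1, 144 and 45 CPM in the reference (log2-fold change 2.26, adjusted p = 0.00200). Fumarate hydratase CTHT_0012530 changed by 1.36 (adjusted p = 0.00478) and the pyruvate dehydrogenase E1 beta subunit CTHT_0006350 by 0.83 (adjusted p = 0.0229), the last without a call when glucose replicate 2 or reference replicate 1 or 3 was left out (log2-fold changes 0.68 to 0.90, adjusted p = 0.0525 to 0.0810).

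The respiratory chain and ATP synthase were higher in 29 of 41 genes and lower in 1, with a median of 1.48. Of the 40 named on the sheet ordered by level 29 were higher (72.5%), beside 42.3% of all genes so named. The summed level was 20753, 20955 and 24867 CPM in glucose, against 5665, 13130 and 3439 CPM in the reference. Reference replicate 2 was the highest reference library for 40 of the 41 members. The number of higher members was 40 without that library and 18 without reference replicate 1. A cytochrome c oxidase-like gene of complex IV, CTHT_0008660, had 141, 173 and 152 CPM in glucose, against 20.7, 34.4 and 21.8 CPM in the reference (log2-fold change 2.60 ± 0.28, adjusted p = 7.53e-05). A subunit of complex I, CTHT_0026400, and subunit 7 of the cytochrome b-c1 complex, CTHT_0063540, changed by 2.47 and 2.45 (adjusted p = 0.00109 and 0.00114). The member with the largest change, CTHT_0043890, is a methyltransferase of ubiquinone synthesis and not a subunit (3.60, adjusted p = 0.000280).

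COQ4 and the alternative oxidase were among the 10 largest increases with a functional name. COQ4 CTHT_0013130, a mitochondrial protein of the synthesis of ubiquinone, the lipid that carries electrons between the complexes, had 104, 115 and 87.3 CPM in glucose, against 2.58, 8.48 and 3.60 CPM in the reference (log2-fold change 4.38, adjusted p = 9.88e-05). The alternative oxidase CTHT_0031430, which passes electrons from ubiquinol straight to oxygen and bypasses the proton-pumping complexes, had 2100, 2966 and 2175 CPM in glucose, against 43.6, 166 and 25.4 CPM in the reference. The log2-fold change was 4.95 ± 0.83 (adjusted p = 0.000809), and it held without any 1 library (4.53 to 6.15). In xylose it averaged 113 ± 91.6 CPM, and the difference of xylose minus glucose was -4.41 (edgeR, adjusted p = 0.00101).

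Mitochondrial ribosomal proteins, which build the ribosome inside the organelle, were higher after glucose. Of 15 genes 14 were called higher, with a median log2-fold change of 2.63, and 14 or 15 were called when any 1 library was left out. All 15 were named on the sheet ordered by level, where 42.3% of all genes were higher. The summed level was 2259, 2193 and 2090 CPM in glucose, against 449, 633 and 314 CPM in the reference. CTHT_0060210, a protein of the large subunit, had 58.7, 54.5 and 39.2 CPM in glucose, against 6.21, 6.02 and 5.23 CPM in the reference (log2-fold change 3.12 ± 0.25, adjusted p = 1.50e-05). The proteins CTHT_0001410, CTHT_0022630 and CTHT_0019770 changed by 3.07, 3.06 and 2.98.

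Cytosolic ribosomal proteins were higher in 39 of 66 genes and lower in 1 (median 1.71), but this result rests on single libraries. Of the 65 named on the sheet ordered by level 39 were higher (60%), beside 42.3% of all genes so named. The summed level was 43475, 47815 and 62835 CPM in glucose, against 8482, 35150 and 5927 CPM in the reference, and replicate 2 was the highest reference library for 64 of the 66 members. There were 65 higher members without reference replicate 2 and 6 without reference replicate 1. The S12 gene CTHT_0070080 had 695, 755 and 921 CPM in glucose, against 54.3, 192 and 12.1 CPM in the reference (log2-fold change 3.20, adjusted p = 0.00622), and changed by 4.59 without reference replicate 2. The S28 gene CTHT_0046470 and the L5 gene CTHT_0063640 changed by 2.40 and 3.001 (3.86 and 4.77 without reference replicate 2). A further gene, CTHT_0032460, annotated as L3-like at only 51.8 to 84.9 CPM in glucose, changed by 2.28 with an even reference of 11.5 to 18.6 CPM. All 4 calls held without any 1 library.

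**Figure D5:**
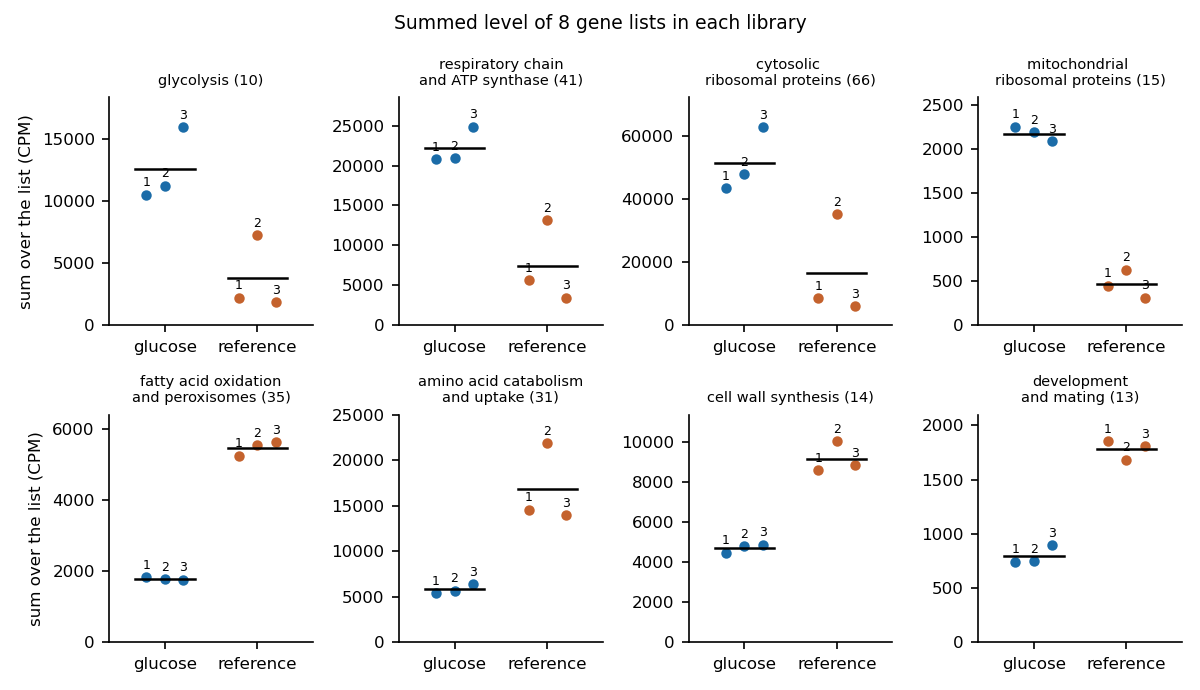
The y axes give the sum of CPM over the members of 8 lists in each library on linear axes from 0, with the glucose libraries on the left, the reference libraries on the right, numbered by replicate, and the mean as a bar. Reference replicate 2 lies towards glucose for glycolysis, respiration and the cytosolic ribosomal proteins (35150 CPM, against 8482 and 5927 CPM in reference replicates 1 and 3), but not for fatty acid oxidation or amino acid catabolism.

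Translation factors and tRNA synthetases were higher in 32 of 49 genes and lower in 2 (median 1.03). Of the 46 named on the sheet ordered by level, 32 were higher (69.6%, beside 42.3% of all genes so named) and 1 lower. There were 18 higher without reference replicate 1 and 40 without reference replicate 2. Elongation factor Tu CTHT_0065730, the factor of organellar translation by name, had 797, 850 and 628 CPM in glucose, against 51.3, 169 and 48.9 CPM in the reference (log2-fold change 3.08, adjusted p = 0.000938). Tryptophanyl- and methionyl-tRNA synthetases CTHT_0022500 and CTHT_0061510, which load amino acids on tRNA, changed by 2.94 and 2.61 (adjusted p = 0.000108 and 4.40e-05). CTHT_0058250, in the list by its name only, is annotated as an elongation factor of RNA polymerase II and changed by 2.60 (adjusted p = 0.000123).

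Ribosome assembly factors help to build ribosomes without being part of them. Of 23 genes, 11 were lower and 4 higher, with a median of -0.87. Of the 14 named only on the lists of changed genes 10 were lower (71.4%), near the 76.3% of all genes so named. Among the 9 others, 3 were higher and 1 lower. Between 4 and 10 genes were lower when 1 library was left out, the fewest without glucose replicate 2. Ribosome assembly protein 4 CTHT_0055700, the Rsa4 homologue that acts on the pre-60S particle, had 17.3, 14.9 and 8.48 CPM in glucose, against 41.3, 88.2 and 30.2 CPM in the reference (log2-fold change -1.97, adjusted p = 0.00350). A U3-associated protein, CTHT_0063870, had 5.39, 2.84 and 1.86 CPM in glucose, against 20.7, 9.08 and 14.2 CPM in the reference (log2-fold change -2.11, adjusted p = 0.00950). In xylose the 2 genes averaged 119 and 65.2 CPM, and the differences of xylose minus glucose were 3.13 and 4.26 (adjusted p = 0.000245 and 0.000243).

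Of the proteasome genes, whose products degrade ubiquitinated proteins, 3 of 28 were higher and 2 lower (median 0.17), with 0 higher without glucose replicate 2 and 0 lower without glucose replicate 1. Of the 27 on the sheet ordered by level, 3 were higher (11.1%) and 1 lower (3.7%), beside 42.3% and 9.95% of all genes on it. Chaperones and oxidative stress genes were mixed, with 12 of 28 higher and 3 lower (median 0.79; 6 higher without reference replicate 3). Among the 26 on the sheet ordered by level, 12 were higher (46.2%) and 1 lower, beside 42.3% higher of all genes on it. The summed levels of this list overlapped, at 25416, 30803 and 37031 CPM in glucose, against 29162, 37467 and 26692 CPM in the reference. The higher members included chaperones of the mitochondrion. The 10 kDa mitochondrial heat shock protein CTHT_0031390 had 302, 334 and 337 CPM in glucose, against 67.7, 93.2 and 50.5 CPM in the reference (log2-fold change 2.20, adjusted p = 0.000624), and its partner of the 60 kDa class, CTHT_0006080, changed by 1.29 (adjusted p = 0.0115). The 6 subunits of the cytosolic chaperonin TCP-1 in the list, singled out with CTHT_0006080 after their values were seen, all rose, by 0.69 (CTHT_0054460) to 1.33 (CTHT_0026160). The smallest of these calls was lost without 4 of the 6 libraries (glucose replicates 2 and 3, reference replicates 1 and 3, adjusted p = 0.0823 to 0.158), and those of CTHT_0018870, CTHT_0036130 and CTHT_0044220 without reference replicate 3 (adjusted p = 0.0513 to 0.0614). An abundant heat shock protein, CTHT_0042100, changed by 1.94 (adjusted p = 0.0267), a call lost without 4 of the 6 libraries (glucose replicates 2 and 3, reference replicates 1 and 3, log2-fold changes 1.66 to 1.90, adjusted p = 0.0643 to 0.0918). In the other direction, an Hsp70 relative of the Hsp110 type, CTHT_0029880, also named after its values were seen, had 537, 549 and 791 CPM in glucose, against 2356, 2412 and 2367 CPM in the reference (log2-fold change -1.93).

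Of 14 cell wall synthesis genes 6 were lower and 1 higher. Among the 10 on the sheet ordered by level 3 were lower (30%) and 1 higher (10%), beside 9.95% and 42.3% of all genes on it. Of the other 4 genes, named only on the lists of changed genes, 3 were lower (75%), near the 76.3% of all genes so named. The list had summed levels of 4466, 4802 and 4874 CPM in glucose, against 8602, 10043 and 8840 CPM in the reference. Without glucose replicate 1, 2 genes were lower. The 1,3-β-glucanosyltransferases CTHT_0068680 and CTHT_0015980, which remodel the glucan of the wall, changed by -1.68 and -1.62 (adjusted p = 0.00355 and 0.00853), the second without a call when glucose replicate 1 was left out (log2-fold change -1.36, adjusted p = 0.0530). A chitin synthase regulatory factor, CTHT_0059700, had 56.4, 54.7 and 57.7 CPM in glucose, against 120, 145 and 134 CPM in the reference (log2-fold change -1.24, adjusted p = 0.000850). The covalently linked cell wall protein CTHT_0063980 went the other way (log2-fold change 4.56). Outside the list, a putative structural cell wall protein, CTHT_0051440, at rank 2 in the reference by CPM per kb, had 2965, 3268 and 4399 CPM in glucose, against 14000, 16421 and 9783 CPM in the reference. Its log2-fold change was -1.92 (adjusted p = 0.0122), a call lost without glucose replicate 1 or 2 (log2-fold changes -1.86 to -1.59, adjusted p = 0.0691 to 0.0789).

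Genes of the cell cycle and DNA replication were lower in 16 of 27 and higher in 1 (median -0.86). Of the 16 named only on the lists of changed genes 15 were lower (93.8%), beside 76.3% of all genes so named. The 11 others were on the sheet ordered by level. Of these 1 was higher and 1 lower (9.09% each), beside 42.3% and 9.95% of all genes on it. Between 7 and 16 were lower when 1 library was left out, the fewest without glucose replicate 2. The anaphase-promoting complex subunit CTHT_0029320, part of the ligase that ends mitosis, had 2.62, 1.73 and 1.27 CPM in glucose, against 7.14, 7.36 and 11.2 CPM in the reference (log2-fold change -2.18, adjusted p = 0.000667). The cyclin-dependent kinase regulatory subunit CTHT_0058520 had 59.4, 66.6 and 62.5 CPM in glucose, against 12.9, 41.3 and 9.24 CPM in the reference. It changed by 1.57 (adjusted p = 0.0163) and 2.52 without reference replicate 2, and the call was lost without reference replicate 1 (log2-fold change 1.31, adjusted p = 0.0625).

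Genes with roles in development and mating were lower in 9 of 13 and higher in none (median -1.32). Of the 10 named only on the lists of changed genes 7 were lower (70%), near the 76.3% of all genes so named. Of the 3 others, on the sheet ordered by level, 2 were lower (66.7%), beside 9.95% of all genes on it. Summed levels were 744, 748 and 894 CPM in glucose, against 1853, 1684 and 1807 CPM in the reference. A tyrosinase of pigment formation, CTHT_0018720, had 27.6, 23.8 and 41.7 CPM in glucose, against 324, 499 and 275 CPM in the reference (log2-fold change -3.56, adjusted p = 0.000119). A polyketide synthase, CTHT_0051120, a sporulation-specific glucanase, CTHT_0041420, and a second tyrosinase, CTHT_0006300, with 4 to 7 reads in the glucose libraries, changed by -2.71, -2.69 and -4.48 (adjusted p = 0.000373, 0.000144 and 0.00181).

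The largest increases were mostly genes without a name. The uncharacterized CTHT_0021100 had 987, 937 and 823 CPM in glucose, against 4.89, 7.66 and 8.07 CPM in the reference (log2-fold change 7.06 ± 0.76, adjusted p = 7.36e-05). CTHT_0054700 had 694, 1386 and 1690 CPM in glucose, against 0.873, 15.8 and 13.7 CPM in the reference (log2-fold change 6.96). Both were far higher in glucose than in xylose, where they averaged 54 and 8.36 CPM. CTHT_0031870 and CTHT_0010420 reached 511 to 839 and 293 to 574 CPM in glucose, against 6.91 to 14.5 and 3.01 to 14.6 CPM in the reference. The genes CTHT_0070550, CTHT_0021340, CTHT_0050580 and CTHT_0011260 had 2 to 7 reads in each reference library and fitted changes of 6.88, 6.27, 6.26 and 6.24. All of these calls held without any 1 library.

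With a functional name, a putative carboxylic acid protein, CTHT_0027630, had 145, 195 and 100 CPM in glucose, against 2.23, 3.89 and 2.20 CPM in the reference (log2-fold change 5.73, adjusted p = 1.12e-05). A Gal4-like transcription factor, CTHT_0056560, of the zinc-cluster family particular to fungi, had 15.7, 13.3 and 19.3 CPM in glucose, against 0.738, 0.731 and 0.501 CPM in the reference (log2-fold change 4.61, adjusted p = 1.50e-05). A covalently linked cell wall protein, CTHT_0063980, an ATP-dependent transporter, CTHT_0056480, and carbonic anhydrase CTHT_0069120, which interconverts CO2 and bicarbonate, changed by 4.56, 4.19 and 4.40 (adjusted p = 0.00151, 1.55e-05 and 0.00126). CTHT_0056560 and CTHT_0056480 were named only on the small sheets. CTHT_0062290, annotated as a methyltransferase of the tocopherol type, had 837, 1469 and 1114 CPM in glucose, against 14.6, 119 and 21.8 CPM in the reference (log2-fold change 4.46, and 5.98 without reference replicate 2). The transcript CTHT_0011270, which the study treats as noncoding, had 79.8, 159 and 177 CPM in glucose, against 14.1, 18.9 and 32.6 CPM in the reference (log2-fold change 2.67, adjusted p = 0.000769), and averaged 2.66 CPM in xylose.

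Per kb of gene length, the most abundant transcript in glucose was CTHT_0027570, an elicitor-like protein of the thaumatin family, which in plants includes defence proteins. It had 45404, 55290 and 77904 CPM per kb in glucose, against 16459, 14893 and 11254 CPM per kb in the reference, where it ranked 4. The log2-fold change was 2.07 (adjusted p = 0.0349), but the call was lost without glucose replicate 2 or 3 or reference replicate 1 or 3 (log2-fold changes 1.84 to 2.19, adjusted p = 0.0801 to 0.105). The uncharacterized CTHT_0018490 ranked 3 in glucose with 34603, 48086 and 53826 CPM per kb, against 3903, 8831 and 4047 CPM per kb in the reference (log2-fold change 3.02, adjusted p = 0.00316). CTHT_0004310, at rank 6 in glucose and 39 in the reference, changed by 2.96 (adjusted p = 0.00381). Its 3 glucose libraries had 8919, 11367 and 17013 CPM, against 2598, 815 and 1369 CPM in the reference.

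Position in the genome was not used to choose the genes. Neighbours here are neighbours among the 6854 genes tested and placed, so genes that were not tested or not placed were passed over. In the order of the RefSeq annotation, a gene right after a higher gene was itself higher in 29.6% of cases, against 24.2% of all genes placed, and a gene right after a lower gene was lower in 32.6%, against 25.4% of all genes placed. The longest stretch of neighbours in 1 direction held 9 lower genes, from CTHT_0016790 to CTHT_0016880, with log2-fold changes between -5.68 and -1.04. Its strongest members, named after their values were seen, were the uncharacterized CTHT_0016840 with 3.78, 3.46 and 3.27 CPM in glucose, against 265, 141 and 135 CPM in the reference, and its neighbour CTHT_0016830 with 0.599, 0.632 and 0.364 CPM in glucose, against 38.2, 10 and 23 CPM in the reference. The call at the first end was lost without glucose replicate 2 or 3 (adjusted p = 0.0551 and 0.0569). The longest higher stretch had 8 genes, from CTHT_0027740 to CTHT_0027810 (0.95 to 2.84), and its last call was lost without reference replicate 1 (adjusted p = 0.0532; log2-fold change 1.56 with all libraries and 2.35 without reference replicate 2).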

How the data were processed

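The authors sequenced poly(A)-selected RNA of 3 biological replicates per condition as single reads of 50 bp, aligned them with TopHat2 (introns of 40 to 5000 bp) and counted reads on genes with summarizeOverlaps. The deposited values are raw counts per gene, not normalized. The strand setting of the counting is not given in the sources used here. The sample labels give a depletion of 48 h, whereas the study's methods give a shorter time, and the study's sources differ on the preculture medium and on the temperature of the depletion.

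Counts were fitted with edgeR 4.0.16 (R 4.3.3) with TMM scaling, filterByExpr (minimum count 10) and the quasi-likelihood test over all 9 libraries. P-values were adjusted by Benjamini-Hochberg over the 6904 genes, and a gene was called under 0.05. CPM use TMM library sizes. The SE is the absolute log2-fold change divided by the square root of the quasi-likelihood F statistic, so it is derived and not estimated by the fit. Names came from the study's supplementary sheets, whose columns of fold changes and p-values were not used, and gene lengths and order from RefSeq. Genes were named by a rule: in each list up to 4 called genes with the largest changes and no overlap between the groups, the enzymes of glycolysis, gluconeogenesis, sugar transport and the regulators, the 10 largest changes each way at a mean of at least 1 CPM, also among genes with a functional name, the 10 most abundant genes per group and those the study names. Only part of the genes that the rule gives are described, and others are marked as chosen after their values were seen. The members and lists were chosen with earlier results of these data known. Alternatives were DESeq2 1.42.0, other scalings and filters, 6 libraries only, a replicate block and leaving out each library.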

Additional observations from a re-analysis of the deposited data

How the results depend on the processing

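No call changed direction under any alternative. Leaving out 1 library gave 2522 to 3837 called genes, 1216 to 1952 higher and 1146 to 1885 lower. Leaving out the third library of both groups, an alternative added after seeing the data, gave 2002 called genes, 883 of them lower. A threshold of 0.01 gave 2161 called genes, 1024 higher and 1137 lower. Deviations from the group mean correlated at 0.29, -0.12 and -0.02 between libraries of the same replicate number, and at -0.25 to 0.17 between the others. With 3 libraries per group these values do not settle whether the libraries were paired. A replicate block gave 3343 called genes, 1667 higher and 1676 lower. Phosphoenolpyruvate carboxykinase CTHT_0044390, which was not called, turned to -0.015 with total counts alone, to -0.11 without the third library of both groups, and ranged between -0.25 and 0.71 when 1 library was left out. The cause was not tested. With 3 libraries per group, 256 genes with changes of at least 2-fold did not pass the test.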
